A study of Mus musculus with 8 samples.

Results

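Described here are 9 mouse genes of bone morphogenetic protein (BMP) signalling and its Id targets, out of 24454 genes measured by RNA sequencing. They were chosen by name, matched to the Entrez Gene numbers of the deposited values, and all 9 were found: the ligand Bmp4, the receptors Acvr1, Bmpr1a and Bmpr2, the inhibitors Smad6 and Bambi, and Id1, Id2 and Id3. The 8 libraries came from 4T1, a mouse mammary carcinoma line, after lentiviral transfer of a short hairpin RNA and puromycin selection, treatments that all groups share. The hairpin was directed against ERK5 in 3 libraries (shERK5, titled shERK5-1) and against MEK5 in 2 (shMEK5, titled shMEK5-2), and was non-targeting in 3 (shCTRL). Each target had 1 hairpin, and the labels do not say whether a line was a clone or a pool, or whether replicates were separate cultures. Each p-value thus reflects the spread among the libraries at hand, and that spread may be technical. The series asks what the MEK5-ERK5 kinase pair does in the epithelial-mesenchymal transition of breast cancer cells.

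BMPs are secreted ligands that bring together type I receptors, such as ALK2 (Acvr1) and BMPR1A, with type II receptors, such as BMPR2. The receptors phosphorylate SMAD1, SMAD5 and SMAD9, which bind SMAD4 and switch on target genes, among them the Id genes and the feedback inhibitor Smad6. Id proteins have a helix-loop-helix but no DNA-binding region, and they hold E proteins, the partners of tissue-specific transcription factors, away from DNA. In mammary epithelium Id genes are known for keeping cells undifferentiated, although Id2 is also needed for the formation of milk-producing alveoli in mice.

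The libraries held 41397315 to 53714288 gene-assigned reads, so a read was worth 0.0186 to 0.0242 CPM (reads of a gene per 1000000 gene-assigned reads). The hairpin targets checked the labels. Mapk7, which encodes ERK5, stood at 6.53 ± 0.173 CPM in shERK5, 19.5 ± 1.19 CPM in shMEK5 and 26.8 ± 1.61 CPM in shCTRL, and Map2k5, which encodes MEK5, at 36.7 ± 0.475, 14.2 ± 0.216 and 36.3 ± 0.997 CPM (SD, n = 3, 2 and 3). All 7 epithelial markers were detected, with summed levels of 1578 to 1629 CPM in shERK5, 1332 to 1395 CPM in shMEK5 and 1761 to 1950 CPM in shCTRL. Its members moved apart: Krt8 (-0.52 in shERK5, -0.53 in shMEK5) and Krt18 (-0.52 in shERK5, -0.60 in shMEK5), the most abundant, fell in both knockdowns by the test described below, while Cdh1 (1.56 in shERK5, 0.56 in shMEK5) and Krt19 (1.02 in shERK5, 0.39 in shMEK5) rose in both (log2 fold changes against shCTRL). Epcam (1.06) and Krt7 (0.75) rose in shERK5. Krt14 reached 1 CPM in the shMEK5 libraries alone and entered the test through them, so its values are given with no test. It had 0.335, 0.244 and 0.360 CPM in shERK5, 1.84 and 1.75 CPM in shMEK5, and 0.461, 0.327 and 0.241 CPM in shCTRL. The part of these shifts in the results on the BMP and Id genes was not tested. The haematopoietic markers Cd3e and Adgre1, the fibroblast marker Dcn and the endothelial marker Kdr had 0 reads in every library. Mouse haematopoietic markers summed to at most 3.67 CPM, and endothelial ones to at most 0.338 CPM. The fibroblast list summed to between 22.9 and 47.1 CPM, nearly all of it from Pdgfra. By the same test, Pdgfra fell in shERK5 (-0.48) and was not called in shMEK5 (-0.06). Cd68, which made up nearly all of the haematopoietic sum, fell in shMEK5 (-0.43) and was not called in shERK5 (0.09).

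The Id genes moved apart from each other. Id1 and Id3 fell in both knockdown lines and Id2 rose in both, by limma on log2(CPM + 1) at a Benjamini-Hochberg (BH) adjusted p under 0.05 over all tested genes. Of the 9 members, 7 passed the expression filter of 1 CPM in at least 2 libraries, and Bmp4 and Bambi did not. In shERK5 against shCTRL 2 members rose and 3 fell, on a background of 32.0% of all 11623 tested genes called up and 31.3% called down (63.3% in all). In shMEK5 against shCTRL 2 rose and 2 fell, with 23.1% of all tested genes called up and 25.6% down (48.7% in all). Between the knockdowns, 2 members were higher and 1 was lower in shERK5, with 22.0% of all tested genes called up and 17.4% down (39.4% in all). These member counts are near what the background shares give. Both comparisons with shCTRL use the same 3 control libraries.

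Id1 (Entrez Gene 15901; chromosome 2, 152736251 to 152737410, GRCm38) had 8.75, 7.38 and 7.89 CPM in the shERK5 libraries, 6.11 and 4.82 CPM in the shMEK5 libraries, and 11.8, 10.3 and 10.9 CPM in the shCTRL libraries. The 3 groups did not overlap: shMEK5 was lowest, shERK5 between, and shCTRL highest. In shMEK5 it stood at 49.6% of the control mean, a log2 fold change of -0.90 (SE 0.11, BH-adjusted p = 8.1e-05), larger in size than that of 96.3% of tested genes. In shERK5 it stood at 72.7% of the control mean (-0.42, SE 0.10, BH-adjusted p = 0.00317), larger in size than that of 72.4% of tested genes. Id1 was higher in shERK5 than in shMEK5 by 0.48 (SE 0.11, BH-adjusted p = 0.00476), a difference that was no longer called without shMEK5 replicate 2 (0.34, BH-adjusted p = 0.0593). As in any bulk RNA, a change in the share of expressing cells and a change in the level per cell cannot be told apart.

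Id3 (Entrez Gene 15903; chromosome 4, 136143822 to 136145392) showed a smaller fall. Its levels were 21.9, 20.1 and 21.5 CPM in shERK5, 20.3 and 18.5 CPM in shMEK5, and 24.5, 26.7 and 26.1 CPM in shCTRL. Every knockdown library lay under every control library, while the knockdown groups overlapped. The log2 fold change was -0.27 (SE 0.06, BH-adjusted p = 0.0041) in shERK5 and -0.39 (SE 0.07, BH-adjusted p = 0.00138) in shMEK5. These were larger in size than those of 53.4% and 76.9% of tested genes. Between shERK5 and shMEK5 the difference of 0.12 (SE 0.07, 95% interval -0.04 to 0.28, BH-adjusted p = 0.214) did not pass the test.

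Id2 (Entrez Gene 15902; chromosome 12, 25093799 to 25096092) went the other way. It had 13.7, 18.4 and 18.2 CPM in shERK5, 13.3 and 11.2 CPM in shMEK5, and 10.1, 8.94 and 8.95 CPM in shCTRL. The groups did not overlap, but shERK5 replicate 1 lay next to the shMEK5 libraries and well under its own group. In shERK5 the mean was 180% of that in shCTRL (log2 fold change 0.77, SE 0.11, BH-adjusted p = 0.000203). This log2 fold change was larger in size than that of 92.3% of tested genes, and its smallest value on leaving out any library was 0.70. The rise in shMEK5 was less secure, at 0.36 (SE 0.13, BH-adjusted p = 0.0372), larger in size than that of 74.2% of tested genes. It was lost without shMEK5 replicate 1 (0.25, BH-adjusted p = 0.246), shCTRL replicate 2 (0.33, BH-adjusted p = 0.0947) or shCTRL replicate 3 (0.34, BH-adjusted p = 0.0995). Id2 was higher in shERK5 than in shMEK5 by 0.41 (SE 0.13, BH-adjusted p = 0.0254). That call was lost without shMEK5 replicate 2 (0.30, BH-adjusted p = 0.186), shERK5 replicate 2 (0.34, BH-adjusted p = 0.0717) or shERK5 replicate 3 (0.35, BH-adjusted p = 0.0858).

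**Figure D1:**
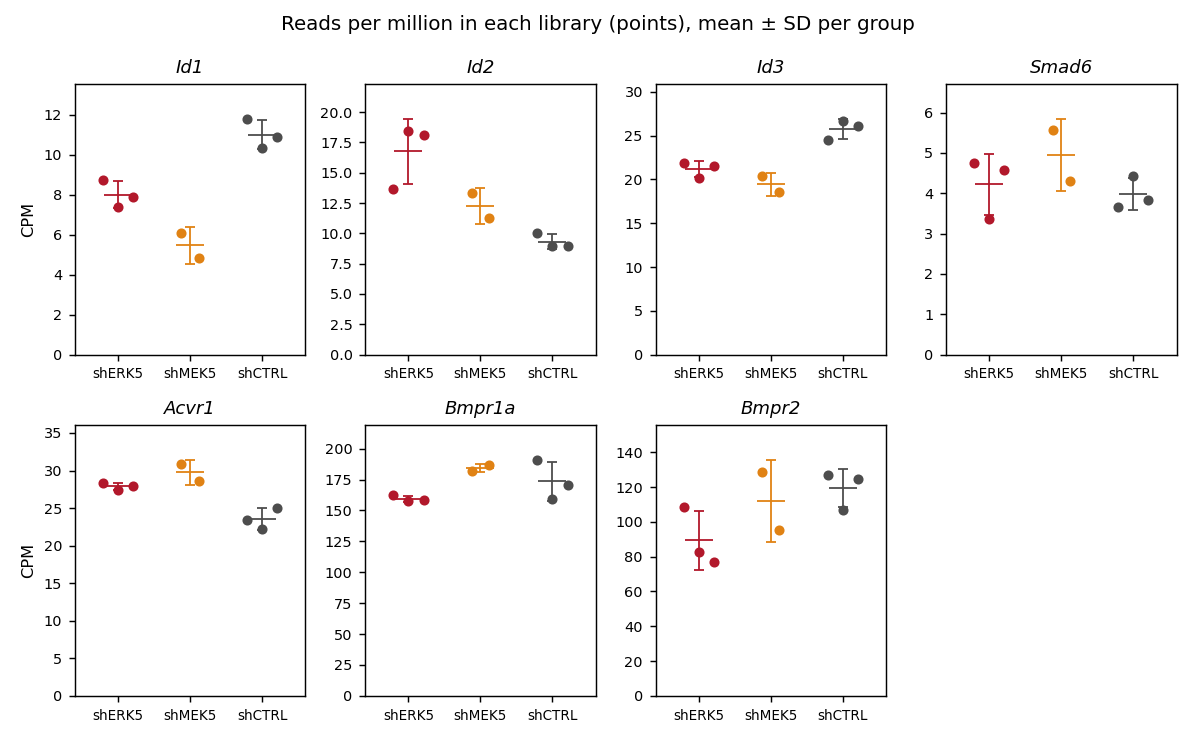
CPM of the 7 members that passed the expression filter, with shERK5, shMEK5 and shCTRL from left to right; points are libraries, and bars the mean and SD (n = 3, 2 and 3). Id1 and Id3 lie lower and Id2 higher in every knockdown library than in any shCTRL library. For Smad6, Bmpr1a and Bmpr2 each knockdown group overlaps shCTRL, while Bmpr1a does not overlap between shERK5 and shMEK5.

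Set per kilobase of annotated exon, the balance within the family changed. In shERK5, Id3 stood at 11.8 ± 0.531, Id1 at 6.90 ± 0.596 and Id2 at 6.87 ± 1.10 CPM per kb (SD, n = 3). In shMEK5, Id3 stood at 10.9 ± 0.713, Id1 at 4.71 ± 0.789 and Id2 at 5.03 ± 0.602 CPM per kb (SD, n = 2). In shCTRL, Id3 stood at 14.4 ± 0.645, Id1 at 9.49 ± 0.634 and Id2 at 3.82 ± 0.266 CPM per kb (SD, n = 3). Id1 and Id2, well apart in shCTRL, thus did not differ beyond their spread in either knockdown, while Id3 stayed the most abundant of the family in every library.

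The ratio of Id2 to Id1 within a library does not depend on library size. It was 0.743, 1.19 and 1.09 in shERK5, 1.04 and 1.11 in shMEK5, and 0.406, 0.411 and 0.391 in shCTRL. Every knockdown library lay above every control library, with mean log2 differences of 1.30 for shERK5 and 1.41 for shMEK5. Between shERK5 and shMEK5 the ratio differed by -0.12 on the log2 scale. The ratio of Id1 to Id3 was 0.616, 0.567 and 0.566 in shERK5, 0.464 and 0.401 in shMEK5, and 0.745, 0.598 and 0.645 in shCTRL. It was lowest in both shMEK5 libraries, and shERK5 overlapped shCTRL. The ratios were formed with the levels of these genes known and are given as descriptions, with no test.

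**Figure D2:**
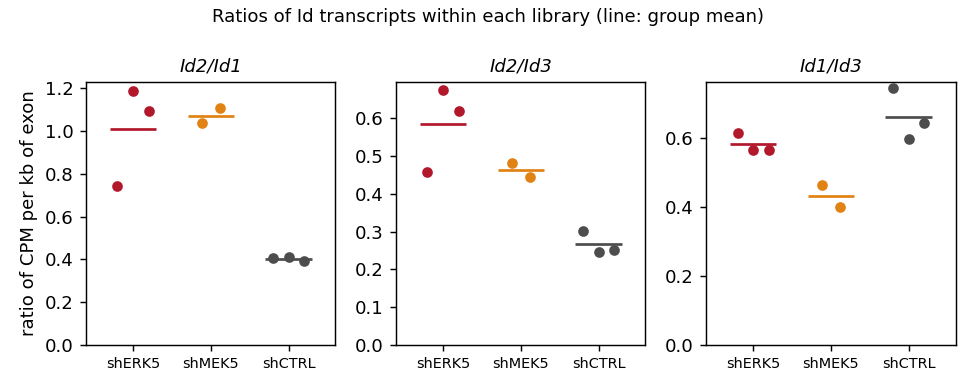
Ratios of Id transcripts (CPM per kb of exon) within each library, for shERK5, shMEK5 and shCTRL from left to right; points are libraries and lines group means. Id2/Id1 lies between 0.743 and 1.19 in the knockdown libraries and between 0.391 and 0.411 in shCTRL.

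The promoters of the oppositely moving Id2 and Id3, and of the feedback gene Smad6, are shown so that the letters near their start sites can be compared. Each line runs 5′ to 3′ on the gene's strand, from 250 bases before to 30 after a RefSeq start site in GRCm38.p6. Capitals mark GTCTAGAC, the palindrome that SMAD3 and SMAD4 bind in vitro, GGCGCC, the GC-rich element of BMP-responsive enhancers, and CCAAT, the NF-Y box, on either strand.
Id2, chr12:25096063-25096342, minus strand: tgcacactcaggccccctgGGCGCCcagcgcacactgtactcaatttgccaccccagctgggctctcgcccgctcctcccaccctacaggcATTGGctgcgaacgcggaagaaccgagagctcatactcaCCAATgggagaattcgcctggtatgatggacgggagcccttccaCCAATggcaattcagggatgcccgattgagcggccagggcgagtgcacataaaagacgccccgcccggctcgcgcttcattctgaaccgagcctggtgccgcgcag
Id3, chr4:136143572-136143851, plus strand: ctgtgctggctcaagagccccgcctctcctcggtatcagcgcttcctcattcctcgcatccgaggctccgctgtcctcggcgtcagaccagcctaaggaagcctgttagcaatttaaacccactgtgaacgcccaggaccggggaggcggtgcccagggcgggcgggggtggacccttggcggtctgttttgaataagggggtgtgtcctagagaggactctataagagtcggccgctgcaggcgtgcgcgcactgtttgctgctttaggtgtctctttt
Smad6, chr9:64022030-64022309, minus strand: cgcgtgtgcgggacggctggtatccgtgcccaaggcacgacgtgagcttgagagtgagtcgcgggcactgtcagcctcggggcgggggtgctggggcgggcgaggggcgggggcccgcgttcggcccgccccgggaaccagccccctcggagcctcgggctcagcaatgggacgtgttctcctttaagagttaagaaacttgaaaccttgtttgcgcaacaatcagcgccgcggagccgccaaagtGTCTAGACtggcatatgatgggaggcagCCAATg
Id2 had 1 GGCGCC and 3 CCAAT matches, and Id3 had 0 matches to any of the 3 motifs. GGCGCC was not particular to Id2: Bmpr1a and Bmpr2, whose sequences are not printed, had 1 match each. Bmpr1a also had 1 CCAAT. Smad6 had GTCTAGAC across the start site used for its window, from base -4 to base 4, and 1 CCAAT downstream of it. For Smad6 and Bmpr1a the start site of the window lies inside the gene bounds given below, not at their 5′ end. By those bounds the GTCTAGAC match lies within the Smad6 gene. Among 32817 windows of the same length, 0.192% held GTCTAGAC, 10.9% GGCGCC and 36.1% CCAAT. Of the 7 members with a RefSeq window, 0 held a match to the consensus of MEF2, a family of transcription factors that ERK5 phosphorylates, against 3.07% of all windows. Id1 and Bambi had no window, so their promoters were not searched. In all, 5 motifs were searched for, the fifth being the E-box CANNTG, to which basic helix-loop-helix factors bind. It was in 70.1% of all windows, with 3 matches in Bmp4, 1 in Id2 and 1 in Smad6. The motifs were chosen after these sequences had been seen, and GTCTAGAC because it had been noticed in the Smad6 window. The search first covered only the 250 bases upstream, where Smad6 has 0 matches to GTCTAGAC, and was then widened past the start site to take in that match. The match and its share of windows are therefore a description of a chosen string. The listed motifs did not overlap in the printed sequences. A match is a string of letters, and binding was not measured.

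Smad6 (Entrez Gene 17130; chromosome 9, 63953076 to 64022085) encodes the inhibitory SMAD that blocks type I BMP receptors. It was low, at 4.75, 3.36 and 4.57 CPM in shERK5, 5.58 and 4.31 CPM in shMEK5, and 3.67, 4.42 and 3.83 CPM in shCTRL. The groups overlapped. Its log2 fold changes of 0.06 in shERK5 (SE 0.12, 95% interval -0.21 to 0.34, BH-adjusted p = 0.674) and 0.25 in shMEK5 (SE 0.14, 95% interval -0.05 to 0.56, BH-adjusted p = 0.155) did not pass the test. Bambi (Entrez Gene 68010), a pseudoreceptor that damps BMP and TGF-beta signals, had 3 reads in shERK5, 2 in shMEK5 and 4 in shCTRL, each summed over the libraries of the group. Each library was at or under 0.045 CPM, below the 0.0559 to 0.0725 CPM that 3 reads are worth, so no difference was detectable at this depth.

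Bmp4 (Entrez Gene 12159), the ligand, had 1 read in the whole series, in shCTRL replicate 1. At 0 reads the limit is 3 reads, up to 0.0675 CPM in shERK5 and 0.0725 CPM in shMEK5, for counting error only. Of 13 other BMP family ligands, only Bmp7 passed the expression filter. Bmp7, a ligand that binds Acvr1-containing receptors, had 19.2, 19.4 and 19.7 CPM in shERK5, 13.6 and 12.5 CPM in shMEK5, and 10.5, 10.5 and 9.11 CPM in shCTRL. The groups did not overlap, with shERK5 highest. It rose in shERK5 by 0.89 (SE 0.07, BH-adjusted p = 3.01e-06) and in shMEK5 by 0.35 (SE 0.08, BH-adjusted p = 0.00475), and the rise in shMEK5 was not called without shMEK5 replicate 1 (0.29, BH-adjusted p = 0.0507). Bmp7 was higher in shERK5 than in shMEK5 by 0.55 (SE 0.08, BH-adjusted p = 0.00042). Bmp2, Bmp3, Bmp10, Gdf2 and Gdf6 had 0 reads in every library.

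Of the receptors, Acvr1 rose in both knockdowns and Bmpr2 fell in shERK5. Acvr1 (Entrez Gene 11477; chromosome 2, 58446438 to 58566828), the type I receptor ALK2, had 28.4, 27.4 and 28.0 CPM in shERK5, 30.9 and 28.6 CPM in shMEK5, and 23.5, 22.2 and 25.0 CPM in shCTRL. Every knockdown library lay above every control library. It rose in shERK5 by 0.24 (SE 0.06, BH-adjusted p = 0.00634) and in shMEK5 by 0.33 (SE 0.07, BH-adjusted p = 0.00292). These rises were larger in size than the log2 fold changes of 48.0% and 70.0% of tested genes. The knockdowns differed by -0.09 (95% interval -0.24 to 0.06, BH-adjusted p = 0.332), which did not pass the test.

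Bmpr1a (Entrez Gene 12166; chromosome 14, 34411061 to 34503336) was the most abundant member per kilobase, at 25.1 ± 0.394 in shERK5, 29.0 ± 0.55 in shMEK5 and 27.3 ± 2.50 CPM per kb in shCTRL (SD, n = 3, 2 and 3). Library levels were 162, 158 and 159 CPM in shERK5, 182 and 187 CPM in shMEK5, and 191, 159 and 171 CPM in shCTRL. The shCTRL libraries spanned the shMEK5 group. Replicates 2 and 3 of shERK5 (157.5 and 158.8 CPM) lay just under the lowest shCTRL library (159.2 CPM). Against shCTRL it was called in neither knockdown (-0.12, BH-adjusted p = 0.118 in shERK5; 0.09, BH-adjusted p = 0.296 in shMEK5), although the difference passed without shCTRL replicate 2 in shERK5 (-0.18, BH-adjusted p = 0.0254) and without shCTRL replicate 1 in shMEK5 (0.16, BH-adjusted p = 0.0344). It was lower in shERK5 than in shMEK5 by 0.21 on the log2 scale (log2 fold change -0.21, SE 0.07, BH-adjusted p = 0.0341). This call was lost on leaving out shMEK5 replicate 1 (-0.23, BH-adjusted p = 0.102), shMEK5 replicate 2 (-0.19, BH-adjusted p = 0.153), shERK5 replicate 2 (-0.20, BH-adjusted p = 0.0719), shERK5 replicate 3 (-0.20, BH-adjusted p = 0.0873) or shCTRL replicate 3 (-0.21, BH-adjusted p = 0.0515). An antisense gene, Gm17110, overlaps up to 290 bases of a Bmpr1a exon on the other strand, and the use of strand in counting is not given.

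Bmpr2 (Entrez Gene 12168; chromosome 1, 59764279 to 59878081), the type II receptor, varied most within groups. It had 109, 82.8 and 76.9 CPM in shERK5, 129 and 95.5 CPM in shMEK5, and 127, 107 and 125 CPM in shCTRL. Replicate 1 was the highest of each group, and shERK5 replicate 1 lay within the control range. The fall in shERK5, by 0.42 on the log2 scale (SE 0.15, BH-adjusted p = 0.041), was lost with edgeR on recovered reads (-0.42, BH-adjusted p = 0.0513). It was also lost without shCTRL replicate 1 (-0.38, BH-adjusted p = 0.129), shCTRL replicate 3 (-0.39, BH-adjusted p = 0.0968), shERK5 replicate 2 (-0.38, BH-adjusted p = 0.126) or shERK5 replicate 3 (-0.32, BH-adjusted p = 0.111). In shMEK5 the log2 fold change was -0.10 (SE 0.17, 95% interval -0.50 to 0.29, BH-adjusted p = 0.646). Bmpr2 differed between shERK5 and shMEK5 by -0.32 (BH-adjusted p = 0.177), and by -0.47 without shERK5 replicate 1 (BH-adjusted p = 0.0278).

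**Figure D3:**
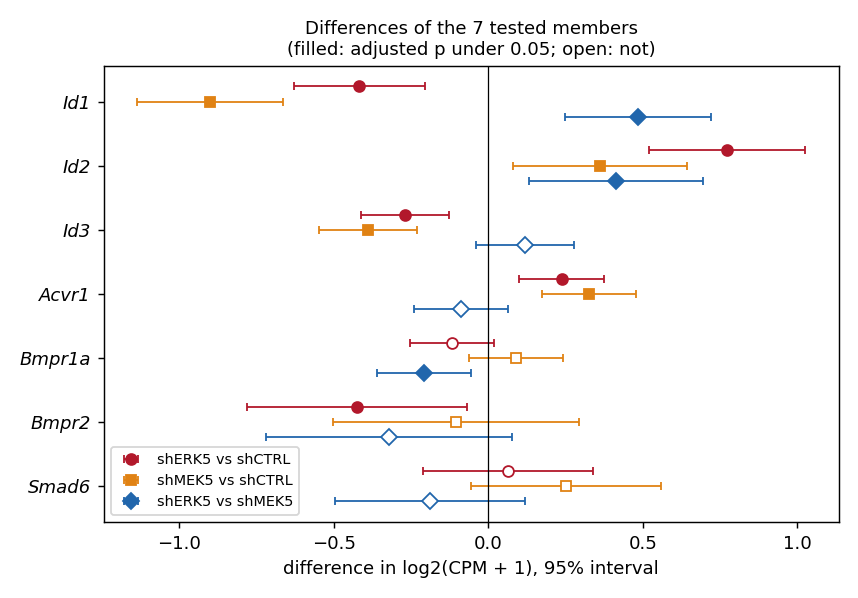
Differences in log2(CPM + 1) with 95% intervals for the 7 tested members, in shERK5 against shCTRL (circles), shMEK5 against shCTRL (squares) and shERK5 against shMEK5 (diamonds); filled symbols passed an adjusted p under 0.05. Id1 in shMEK5 (-0.90) and Id2 in shERK5 (0.77) are the differences farthest from 0.

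Per kilobase in shERK5, Id1, Id2, Acvr1 (5.78 ± 0.103 CPM per kb) and Bmpr2 (4.98 ± 0.943) lay close together below Bmpr1a and Id3. Each of these overlapped its neighbour within 1 SD. In shMEK5, Bmpr2 (6.23 ± 1.30 CPM per kb) and Acvr1 (6.16 ± 0.335) overlapped within 1 SD, as did Id2 and Id1 below them. In shCTRL, the order of the members was Bmpr1a, Id3, Id1, Bmpr2 (6.65 ± 0.612 CPM per kb), Acvr1 (4.87 ± 0.295), Id2 (3.82 ± 0.266) and Smad6 (1.24 ± 0.123; SD, n = 3 each), and no neighbours overlapped within 1 SD. Exon lengths came from GENCODE and may differ from those behind the deposited values.

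The other 70 genes of the pathway were listed by role, and 30 of them passed the expression filter. 1 of them, Fst, lay under 1 CPM in every shCTRL library and passed the filter through the knockdown libraries alone, so it is left out of the counts that follow. Of the other 29, 8 rose and 8 fell in shERK5, which is 55.2% called against 63.3% of all tested genes. In shMEK5 8 rose and 5 fell, which is 44.8% called against 48.7% of all tested genes. Between the knockdowns 3 were higher and 5 lower in shERK5, which is 27.6% called against 39.4% of all tested genes. In each comparison the called share was thus below that over all tested genes. The median log2 fold change was 0.0046 in shERK5 and 0.07 in shMEK5, against 0.0023 and -0.02 over all tested genes. The lists and the members were chosen with results of these libraries known, so the counts are descriptions.

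Extracellular antagonists bind ligands of the family outside the cell. Of 17 listed, 10 were under the expression filter, and 6 remain beside Fst. In shERK5 5 of the 6 rose and 0 fell (median 0.62), with 32.0% of all tested genes called up. In shMEK5 4 rose and 1 fell (median 0.45), with 23.1% of all tested genes called up and 25.6% down. Fstl3, a follistatin-like protein that binds activins and some BMPs, had 42.9, 42.8 and 47.4 CPM in shERK5, 41.8 and 40.5 CPM in shMEK5, and 15.9, 18.0 and 18.9 CPM in shCTRL. Every knockdown library lay above every control library. The log2 fold change was 1.29 in shERK5 (SE 0.07, BH-adjusted p = 2.96e-07) and 1.18 in shMEK5 (SE 0.08, BH-adjusted p = 2.23e-06). Crim1, a transmembrane protein that binds BMPs, had 160, 159 and 159 CPM in shERK5, 185 and 163 CPM in shMEK5, and 105, 98.1 and 105 CPM in shCTRL. It rose by 0.63 (SE 0.05, BH-adjusted p = 5.21e-06) in shERK5 and 0.75 (SE 0.06, BH-adjusted p = 7.33e-06) in shMEK5.

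Fst, follistatin, was low in every group, at 1.01, 1.58 and 1.17 CPM in shERK5, 3.14 and 3.83 CPM in shMEK5, and 0.596, 0.257 and 0.701 CPM in shCTRL. Every knockdown library lay above every control library, and both shMEK5 libraries above the shERK5 ones. Since its level in the knockdown libraries alone took it past the filter, these values are given with no test. Dand5 rose in shERK5 (0.65, SE 0.09) and shMEK5 (0.42, SE 0.10), as did Chrd, chordin (0.45, SE 0.10 and 0.49, SE 0.11). Nbl1 rose in shERK5 (0.60, SE 0.10). Twsg1, which can help or hinder BMP activity, fell in shMEK5 (-0.24, SE 0.06, BH-adjusted p = 0.00721). Without shMEK5 replicate 2, Chrd (0.34, BH-adjusted p = 0.0551) and Twsg1 (-0.22, BH-adjusted p = 0.0537) were not called in shMEK5.

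**Figure D4:**
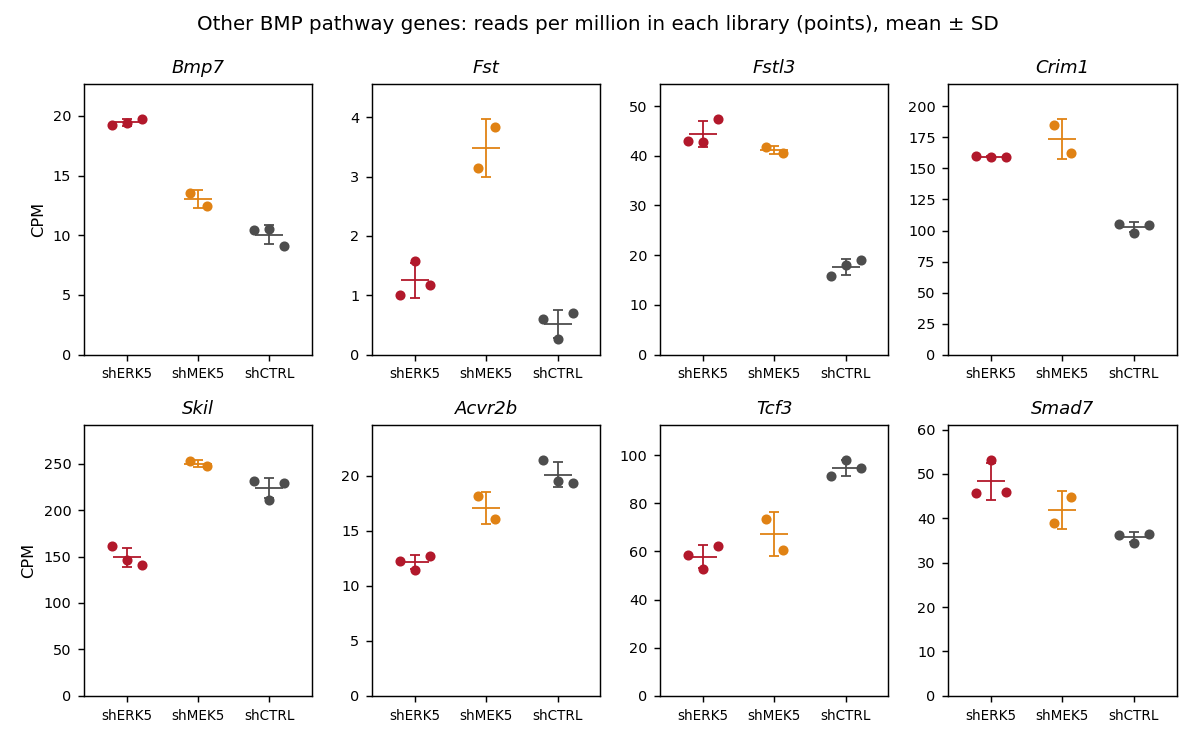
CPM of 8 other pathway genes, with shERK5, shMEK5 and shCTRL from left to right; points are libraries, and bars the mean and SD. Fstl3 and Crim1 are higher in every knockdown library than in shCTRL, Fst is highest in shMEK5, and Skil is lowest in shERK5.

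Among the remaining receptors and co-receptors, 6 of 9 were tested, with 0 up and 2 down in each knockdown against shCTRL. That is 33.3% called, against 63.3% of all tested genes in shERK5 and 48.7% in shMEK5. Acvr2b, a type II receptor shared by activins and BMPs, had 12.2, 11.5 and 12.7 CPM in shERK5, 18.1 and 16.1 CPM in shMEK5, and 21.4, 19.6 and 19.4 CPM in shCTRL. The groups did not overlap. It fell in shERK5 (-0.68, SE 0.07, BH-adjusted p = 2.01e-05) and was lower there than in shMEK5 (-0.46, SE 0.08, BH-adjusted p = 0.00133). Its fall in shMEK5 (-0.22, SE 0.08, BH-adjusted p = 0.0411) was lost under 10 of 19 alternatives. These were TMM and RLE scaling, edgeR, DESeq2, no expression filter, and leaving out any shCTRL library, shMEK5 replicate 2 or shERK5 replicate 3. Tgfbr3, the co-receptor betaglycan, fell in shERK5 (-0.36, SE 0.07, BH-adjusted p = 0.00122) and in shMEK5 (-0.43, SE 0.08, BH-adjusted p = 0.00128). The type I receptor genes Bmpr1b and Acvrl1 had 4 and 30 reads in all.

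Of the SMADs and intracellular regulators, 9 of 10 were tested: 1 rose and 3 fell in shERK5, and 2 rose and 0 fell in shMEK5. The called shares were 44.4% in shERK5 and 22.2% in shMEK5, both under the 63.3% and 48.7% of all tested genes. Skil, the SMAD co-repressor SnoN, had 161, 146 and 141 CPM in shERK5, 253 and 247 CPM in shMEK5, and 231, 211 and 229 CPM in shCTRL. It fell in shERK5 (-0.58, SE 0.06, BH-adjusted p = 1.32e-05), and in shMEK5 the difference of 0.16 (SE 0.06, BH-adjusted p = 0.0644) did not pass the test, although it did with TMM (0.18, BH-adjusted p = 0.0439) or RLE scaling (0.18, BH-adjusted p = 0.0494), with only the 2 groups compared (BH-adjusted p = 0.0449), with edgeR (0.18, BH-adjusted p = 0.0447) or without shERK5 replicate 1 (0.16, BH-adjusted p = 0.0294). Skil was lower in shERK5 than in shMEK5 by 0.74 on the log2 scale (SE 0.06, BH-adjusted p = 1.6e-05). Smad7, the other inhibitory SMAD, rose in shERK5 (0.42, SE 0.07, BH-adjusted p = 0.000551). Its smaller rise in shMEK5 (0.22, SE 0.08, BH-adjusted p = 0.0459) was lost under 7 of 19 alternatives, among them leaving out any shCTRL library, shMEK5 replicate 2 or shERK5 replicate 3. Smurf2, a ubiquitin ligase that targets SMADs and receptors, rose in shMEK5 (0.36, SE 0.09, BH-adjusted p = 0.00794), a call lost without shMEK5 replicate 1 (0.32, BH-adjusted p = 0.0664). Smad4 (-0.21, SE 0.05, BH-adjusted p = 0.00558) and Smad1 (-0.16, SE 0.05, BH-adjusted p = 0.0192) fell in shERK5, and Smad1 was not called without shCTRL replicate 1 (BH-adjusted p = 0.0558) or shERK5 replicate 1 (BH-adjusted p = 0.0718). Smad9 had 3 reads in all.

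Enzymes that mature ligands or release them from antagonists moved a little. Furin, a convertase that cleaves BMP precursors, rose by 0.22 in shERK5 (SE 0.05, BH-adjusted p = 0.00401) and 0.17 in shMEK5 (SE 0.06, BH-adjusted p = 0.0388), the rise in shMEK5 being lost under 6 of 19 alternatives, among them leaving out shCTRL replicate 2 or 3, either shMEK5 library, or shERK5 replicate 3. Bmp1, which is not a ligand but a protease that cleaves chordin, fell (-0.29, SE 0.04, BH-adjusted p = 0.000155 in shERK5; -0.21, SE 0.05, BH-adjusted p = 0.00422 in shMEK5). Of 11 further BMP target genes, only Runx2 was tested, and it was called in neither knockdown (-0.28, BH-adjusted p = 0.0873 in shERK5; -0.28, BH-adjusted p = 0.143 in shMEK5). It passed in shERK5 with only the 2 groups compared (BH-adjusted p = 0.0166), with DESeq2 (-0.30, BH-adjusted p = 0.0471), with the replicate number as a block (BH-adjusted p = 0.025), and without shMEK5 replicate 1 (BH-adjusted p = 0.0169) or shMEK5 replicate 2 (BH-adjusted p = 0.0164). It also passed in shMEK5 without shMEK5 replicate 1 (-0.55, BH-adjusted p = 0.00678). Id4, the remaining Id gene, had 30 reads in all, and Msx1, Msx2, Dlx2, Dlx5 and Atoh8 had 0 in every library.

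Of the E proteins that Id proteins bind, Tcf3 (E2A) had 58.7, 52.7 and 62.1 CPM in shERK5, 73.6 and 60.7 CPM in shMEK5, and 91.3, 97.8 and 94.6 CPM in shCTRL. Every knockdown library lay under every control library. It fell by 0.70 on the log2 scale in shERK5 (SE 0.08, BH-adjusted p = 3.2e-05) and 0.49 in shMEK5 (log2 fold change -0.49, SE 0.09, BH-adjusted p = 0.00114). Tcf4 (E2-2) fell in shERK5 (-0.51, SE 0.11, BH-adjusted p = 0.00405). In shMEK5 its log2 fold change of -0.27 (SE 0.13, BH-adjusted p = 0.107) did not pass, but it did with the replicate block (-0.32, BH-adjusted p = 0.0024) or without shERK5 replicate 1 (BH-adjusted p = 0.0492). The difference of Tcf4 between shERK5 and shMEK5 (-0.24, BH-adjusted p = 0.169) did not pass, although it did with the block (-0.20, BH-adjusted p = 0.0226) or without shERK5 replicate 1 (-0.33, BH-adjusted p = 0.0398). Tcf12 (HEB) was called in neither comparison with shCTRL (0.10, BH-adjusted p = 0.181 in shERK5; 0.12, BH-adjusted p = 0.144 in shMEK5), although it passed in shERK5 without shERK5 replicate 2 (0.15, BH-adjusted p = 0.0357) and in shMEK5 with the block (0.15, BH-adjusted p = 0.0479).

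Genes whose log2(CPM + 1) most closely followed Id1, Id2, Id3 and Smad6 were sought over the 8 libraries. The search covered 9781 named genes with a mean of at least 5 CPM. It was not made for the receptors, and Bmp4 and Bambi lay under the expression filter. Pearson's r is given as a description, since the libraries share 3 groups. For Id1 these were Cbfb (r = 0.988), Ssh2 (0.987) and Erap1 (0.986). For Id2 they were Rnf130 (0.986), Cemip2 (0.985) and Lsm14a (0.982), for Id3 Trim3 (0.986), Sars2 (0.986) and Sfi1 (0.984), and for Smad6 Hspg2 (0.961), Ccdc85c (0.958) and Twist1 (0.956).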

How the data were processed

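Total RNA of 8 4T1 libraries was depleted of ribosomal RNA and sequenced with a stranded kit, per the labels' protocols. Alignment used STAR and mm10, per the submitters' processing notes, whose version, annotation, counting program and strand setting were not given. The authors deposited CPM, summing to 1000000 per library. Within 0.01 read, 100% of nonzero values came out as whole reads, which were recovered. Symbols came from RefSeq GRCm38.p6 by Entrez number (24374 of 24454 genes) and exon lengths from GENCODE M21.

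The main test was limma (version 3.58.1, trend and robust moderation) on log2(CPM + 1), with 1 mean per group over all 8 libraries. Genes with at least 1 CPM in at least 2 libraries were tested (11623, leaving 12831 out), with Benjamini-Hochberg adjustment over all of them and calls at 0.05. The log2 scale with a pseudocount understates changes of low genes. Recovered reads were tested with edgeR (4.0.16) and DESeq2 (1.42.0) as alternatives. Other alternatives were pseudocounts, filters, TMM and RLE scaling, fits of 2 groups, a replicate block and leaving out each library. Replicates differed by more than sampling noise (chi-square per degree of freedom 7.72 to 39.1), so none was counted as a duplicate. Intervals and floors cover counting error or library spread only, since reads are not independent molecules.

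The members and lists were chosen with earlier results of these data known. Named were the members, the hairpin targets, list genes that passed the test or had few or 0 reads, and the 3 genes most like each of Id1, Id2, Id3 and Smad6. Genes of the other observations, and list genes named without passing the test, were chosen after their values were seen. Mapping of reads shared with pseudogene copies, such as Bambi-ps1, was not stated.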

Additional observations from a re-analysis of the deposited data

How the results depend on the processing

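Over 19 alternatives, 0 calls of members or pathway genes changed sign. Acvr1, Id1 and Id3 in both knockdowns against shCTRL, and Id2 in shERK5, passed the test under every alternative; the other called members lost their call under at least 1. Between shERK5 and shMEK5 the members' count was least stable: 3 were called as reported, no expression filter 1, the replicate block 1, and leaving out single libraries 0 to 4. All genes called in that comparison numbered 4581, and 2864 to 4825 on leaving out single libraries, the lowest without shMEK5 replicate 1. In shMEK5 against shCTRL 14 pathway genes, Fst included, were called, and 9 to 16 on leaving out single libraries, the lowest without shMEK5 replicate 2. The cause was not tested.

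The replicate numbers were not taken to pair the libraries: deviations from the group means correlated between -0.191 and 0.169 for libraries of the same number in a knockdown and shCTRL. The 2 same-numbered pairs of shERK5 and shMEK5 correlated at 0.465 and 0.518, above all other pairs, which is a hint from the data and not from the design. With only 2 shMEK5 libraries their deviations are exact opposites. With the replicate block Id2 in shMEK5 (0.38, adjusted p = 0.079), and Id2 (0.39, adjusted p = 0.0828) and Bmpr1a (-0.20, adjusted p = 0.0513) between shERK5 and shMEK5, were no longer called. Without an expression filter, which raises the genes tested to 17283, the same calls and that of Bmpr2 in shERK5 (adjusted p = 0.0521) were lost. Fitting only the 2 groups compared, Id2 between shERK5 and shMEK5 was lost (0.41, adjusted p = 0.0566). TMM or RLE scaling changed no call of a member. Leaving out 1 of the 2 shMEK5 libraries assumes that the remaining library varies like the other groups. Depth limits statements on Bmp4 and Bambi, and on genes with a handful of reads.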

Other observations

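Dlx3, a homeobox gene of skin and placenta on the list of BMP targets, lay under the expression filter and was not tested. It had 0.838, 0.488 and 0.877 CPM in shERK5, 0.193 and 0.189 CPM in shMEK5, and 0.134, 0.117 and 0.285 CPM in shCTRL. The shERK5 libraries lay above all others. Acvrl1, the type I receptor ALK1 best known from endothelium, had 0.168, 0.113 and 0.112 CPM in shERK5, 0.097 and 0.042 CPM in shMEK5, and 0.038, 0.047 and 0 CPM in shCTRL.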
